A study of Mus musculus with 4 samples.

Results

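Tlr2, Tlr1, Tlr6 and Tlr5 encode the Toll-like receptors of the cell surface that recognise bacterial lipoproteins and flagellin. These receptor genes were chosen by name, as 4 of the 55536 genes in the deposited tables. The cells were primary macrophages grown from the bone marrow of C57BL/6J mice and stimulated at 100 ng/mL for 60 minutes, and their polyadenylated RNA was sequenced in 4 libraries of 1 group. The labels give the stimulus as lipid A in 1 place and as lipoprotein A in others, number the libraries as biological replicates 1 to 4, and tie all of them to 1 donor record, with sex and age not collected. Unstimulated cells were not analysed here, so no value below is a response to the stimulus. Nothing in the labels says that cultures or animals were separate, and p-values over libraries describe the scatter of these libraries, possibly technical.

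Tlr2 is the chain shared by the lipoprotein receptors of the cell surface: paired with Tlr1 it recognises triacylated lipoproteins, and paired with Tlr6 it recognises diacylated ones. Tlr5 recognises flagellin, the protein of bacterial flagella. All of these receptors signal through the adaptor Myd88, and in macrophages they are known for starting the transcription of inflammatory cytokine genes.

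Tlr1 (ENSMUSG00000044827.10) and Tlr6 (ENSMUSG00000051498.6) lie side by side on the minus strand of chromosome 5, at chr5:64924679-64933563 and chr5:64952031-64960097 of build mm10 in the GENCODE M21 annotation. The 18467 bases between them hold 0 annotated genes. Both proteins are encoded in 1 long exon: all 2385 coding bases of Tlr1 are in the last exon, and all 2418 of Tlr6-201, the longer transcript of Tlr6, are in exon 2. The coding sequences of this pair share long identical runs, the longest of 229 bases, at chr5:64925537-64925765 in Tlr1 and chr5:64953828-64954056 in Tlr6. The first 120 bases of that run are shown because a read lying wholly inside it matches both genes. They are read 5′ to 3′ on the minus strand of mm10 at chr5:64925646-64925780 and chr5:64953937-64954071, with 15 flanking bases in lower case and the identical run in capitals.
Tlr1: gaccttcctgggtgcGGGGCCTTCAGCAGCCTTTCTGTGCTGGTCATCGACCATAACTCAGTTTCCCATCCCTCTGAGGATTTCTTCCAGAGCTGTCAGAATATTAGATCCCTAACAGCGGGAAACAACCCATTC
Tlr6: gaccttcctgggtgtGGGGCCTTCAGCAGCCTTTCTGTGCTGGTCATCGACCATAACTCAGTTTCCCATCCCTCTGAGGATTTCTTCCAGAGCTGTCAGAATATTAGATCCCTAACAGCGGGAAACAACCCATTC

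In all, 6 identical runs of at least 50 bases covered 748 of the 2783 bases of Tlr1-201. Of all windows of 100 bases in Tlr1-201, 9.65% were also found in another of the 4 genes, and for Tlr6-201 this share was 7.24%. For Tlr2-201 and Tlr5-201 it was 0%, also at windows of 31 bases. The deposited counts show the same division between the genes. Those of Tlr1 and Tlr6 were fractional in 4 of 4 libraries, and those of Tlr2 and Tlr5 were whole in every library within 0.005, so the split of reads between Tlr1 and Tlr6 rests partly on the authors' estimation.

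Tlr2 (ENSMUSG00000027995.10) lies at chr3:83836272-83841767 on the minus strand, with 1 annotated transcript of 3 exons, the last of which holds all 2352 coding bases. Tlr5 (ENSMUSG00000079164.8) lies at chr1:182954788-182976044 on the plus strand, with 5 annotated transcripts. No other annotated gene overlaps any of the 4 genes. The sequence before 1 annotated start of each gene is shown because the 4 promoters differ in the motifs they hold. They come from RefSeq on GRCm38.p6 (the mm10 assembly) and were cut to the bases outside annotated exons. Each is read 5′ to 3′ on the strand of its gene, with matches to a searched motif in capitals: chr3:83841768-83841858 for Tlr2, chr5:64933564-64933808 for Tlr1, chr5:64960098-64960298 for Tlr6 and chr1:182954538-182954787 for Tlr5.
Tlr2: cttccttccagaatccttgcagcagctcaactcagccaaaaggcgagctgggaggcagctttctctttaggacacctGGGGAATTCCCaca
Tlr1: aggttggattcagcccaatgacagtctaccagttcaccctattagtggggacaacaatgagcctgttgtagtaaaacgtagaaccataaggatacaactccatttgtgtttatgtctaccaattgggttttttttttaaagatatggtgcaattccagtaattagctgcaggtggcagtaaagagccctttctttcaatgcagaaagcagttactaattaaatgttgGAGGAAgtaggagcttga
Tlr6: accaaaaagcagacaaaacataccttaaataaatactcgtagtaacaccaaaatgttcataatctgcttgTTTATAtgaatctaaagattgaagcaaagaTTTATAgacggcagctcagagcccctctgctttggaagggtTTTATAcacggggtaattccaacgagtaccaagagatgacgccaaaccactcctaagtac
Tlr5: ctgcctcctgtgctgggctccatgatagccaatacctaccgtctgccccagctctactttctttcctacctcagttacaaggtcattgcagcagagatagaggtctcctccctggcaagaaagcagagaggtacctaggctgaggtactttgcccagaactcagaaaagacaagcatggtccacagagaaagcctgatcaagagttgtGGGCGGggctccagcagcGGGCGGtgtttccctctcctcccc

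The motifs below were searched on both strands of windows of 300 bases around the RefSeq starts, and they were chosen after the promoters had been read. They were the NF-κB motif, the PU.1 letters GAGGAA, the AP-1 letters TGANTCA, the interferon-stimulated response element letters GAAANNGAAA, the TATA letters TATAAA and the GC box letters GGGCGG. The capitals in the Tlr2 stretch are overlapping NF-κB matches at −173 to −163, counted from the RefSeq start with −1 as the base before it. A further NF-κB match at −8 to 2 and 2 GC boxes lie inside the annotated first exon and are not shown. Of 32851 mouse promoter windows of the same length, 4.51% hold an NF-κB match. The Tlr1 stretch holds the PU.1 letters at −23 to −18, which 28.3% of windows hold, and a second RefSeq start of Tlr1 near Tlr1-201 had no match. The Tlr6 stretch holds TATA letters on the opposite strand at −180, −150 and −109, found in 13.6% of windows. A second RefSeq start of Tlr6 held 2 overlapping response element matches, found in 3.44%. That start lies 881 bases from the nearest transcript start of Tlr6 in GENCODE M21, and its window holds 0 bases of annotated Tlr6 exons. The Tlr5 stretch holds GC boxes at −42 to −37 and −24 to −19, found in 35.7% of windows. AP-1 letters, found in 7.81% of windows, were in none of the 6 windows of the 4 genes. These matches describe letters and not bound factors.

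The 4 genes stood at widely different levels, in the order Tlr2, Tlr1, Tlr6 and Tlr5. Levels are in TPM, a relative transcript abundance that takes transcript length into account. In bulk RNA, fewer cells of a type and less RNA per cell cannot be told apart. Mean levels were 397.5 ± 178.6 TPM for Tlr2, 66.9 ± 5.01 for Tlr1, 34.5 ± 8.44 for Tlr6 and 1.83 ± 0.813 for Tlr5 (SD, n = 4). Among 22028 protein-coding genes ranked by mean, Tlr2 was at place 313, Tlr1 at 1748, Tlr6 at 3097 and Tlr5 at 9595. Each neighbour in this order was separated in every library, and no 2 genes overlapped. The exact sign-flip test, 2-sided over 4 libraries, gave p = 0.13 for each of the 3 neighbouring pairs (2 of 16 sign assignments), before and after Benjamini-Hochberg adjustment. That is the smallest p the design allows, so 0.05 cannot be reached.

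**Figure D1:**
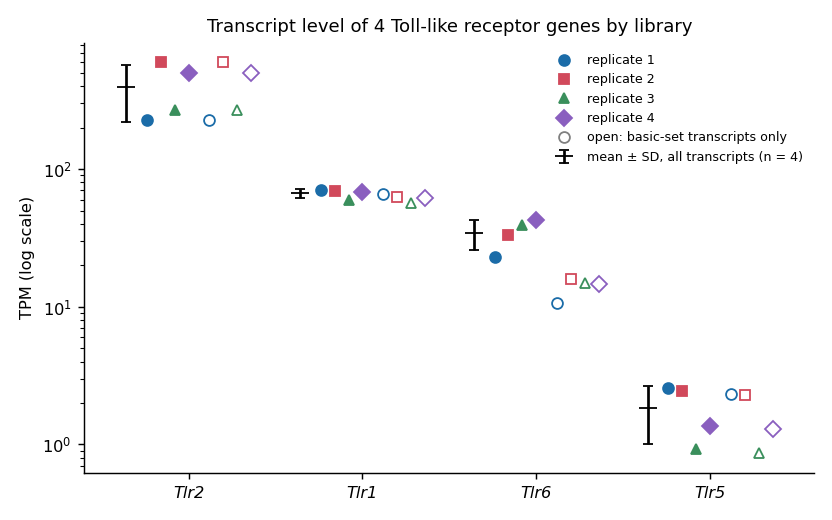
TPM (log scale) of Tlr2, Tlr1, Tlr6 and Tlr5 in each of the 4 libraries, filled symbols for all annotated transcripts, open symbols for transcripts in the GENCODE basic set, and black bars for mean ± SD over 4 libraries. The order of the genes was the same in every library, and the open symbols of Tlr6 lie at 10.7 to 16.0 TPM, below its filled symbols at 23.1 to 42.4 TPM.

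Tlr2 was the most abundant of the 4, and its libraries differed widely. Its level was 226 TPM in replicate 1, 598 in replicate 2, 270 in replicate 3 and 496 in replicate 4. Replicates 2 and 4 were high and replicates 1 and 3 were low. On counts scaled to library size (CPM), replicate 2 was 2.71-fold above replicate 1. Here a gene is called variable when it passes a chi-square test against counting noise at an adjusted p of 0.05 and its highest library is at least 2-fold above its lowest. Tlr2 was called, beside 33.0% of the 12626 genes tested, and so was Tlr5, while Tlr1 and Tlr6 passed the noise test below 2-fold. The noise test alone passed for all 4 genes, beside 88.6% of genes tested, so it separates little at this depth. Without replicate 1 the share of all genes called fell to 16.15% (2048 of 12685), and Tlr2 was still called at 2.10-fold. The range of Tlr2 was wider than that of 80.2% of tested genes and of 88.5% of the 321 genes within 2-fold of its level. The summed level of 10 macrophage marker genes was also higher in replicates 2 and 4 (35600 and 28530 TPM) than in replicates 1 and 3 (20230 and 20640 TPM). Most of that sum was Lyz2, the lysozyme gene, at a mean of 19685 TPM, while C1qa was highest in replicate 1 at 561.6 TPM. Their part in the Tlr2 values was not tested.

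**Figure D2:**
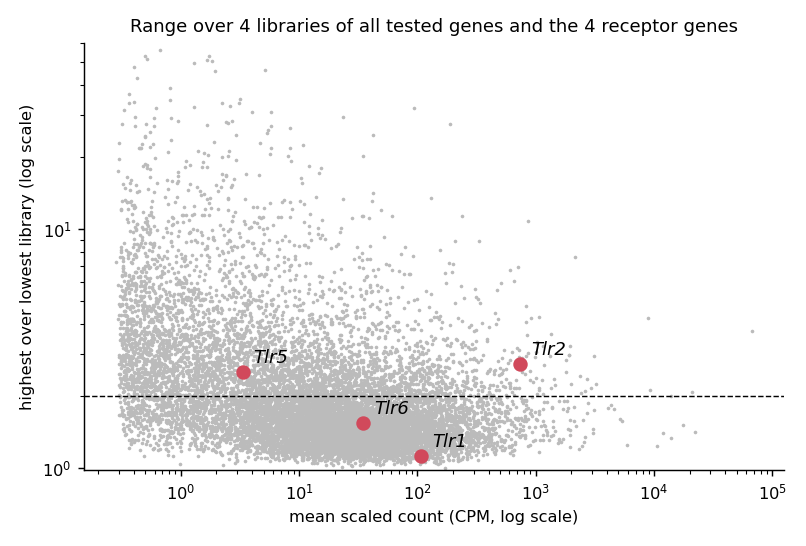
Ratio of the highest to the lowest library against mean scaled count (CPM), both on log scales, for all tested genes (grey) and the 4 receptor genes (red), with the 2-fold line dashed. Tlr2 (2.71) and Tlr5 (2.52) lie above the line, Tlr6 (1.54) below it and Tlr1 (1.12) near the bottom, and 68 tested genes above a ratio of 60 are outside the axis.

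Tlr1, the partner of Tlr2 for triacylated lipoproteins, was among the steadiest genes of its level. Its level was 70.5, 69.4, 59.5 and 68.3 TPM in the order of replicate number, lowest in replicate 3. Its scaled counts were 110, 107, 101 and 113 CPM, a 1.12-fold range beside a median of 1.68-fold over all tested genes. Only 2.01% of tested genes, and 3.49% of the 2321 genes within 2-fold of its level, had a narrower range. Its noise test gave an adjusted p of 1.03e-05 (chi-square with Benjamini-Hochberg adjustment), a difference of small size at a high count. The ratio of Tlr2 to Tlr1 in TPM was 3.21, 8.62, 4.54 and 7.26 in replicates 1 to 4. Tlr2 was thus above Tlr1 in 4 of 4 libraries, by 2.46 ± 0.649 on the log2 scale (SD, n = 4), a 5.49-fold difference. It also exceeded the sum of Tlr1 and Tlr6 in every library, by 2.42-fold in replicate 1 and 5.82-fold in replicate 2.

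The steady level of Tlr1 was made of transcripts in shifting shares. Tlr1-201 (2783 bases) and Tlr1-202 (3025 bases) carry the same coding exon and differ in their first exons: Tlr1-201 starts with a 95-base exon at chr5:64932667-64932761, and Tlr1-202 starts further upstream with exons of 36 and 300 bases. Tlr1-202 took 37.2% of the counts of the gene in replicate 1, 27.2% in replicate 2, 17.9% in replicate 3 and 28.6% in replicate 4. The deposited second quantification of these libraries gave 38.7%, 28.4%, 18.1% and 29.9%, in the same order of libraries. How it was made is not stated, so it is not independent evidence. Tlr1-201 held 42.6, 46.9, 47.3 and 45.3 TPM, and Tlr1-202 held 23.2, 16.2, 9.42 and 16.7 TPM. In the second quantification Tlr1-201 held 28.2, 30.0, 41.3 and 38.8 TPM, a wider spread, and Tlr1-202 held 16.6, 11.1, 8.44 and 15.5 TPM. In both, Tlr1-202 was highest in replicate 1 and lowest in replicate 3. The windows of 100 bases of Tlr1-201 were shared with Tlr1-202 at 96.5%, so the split rests on few distinguishing bases, and it was not tested.

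**Figure D3:**
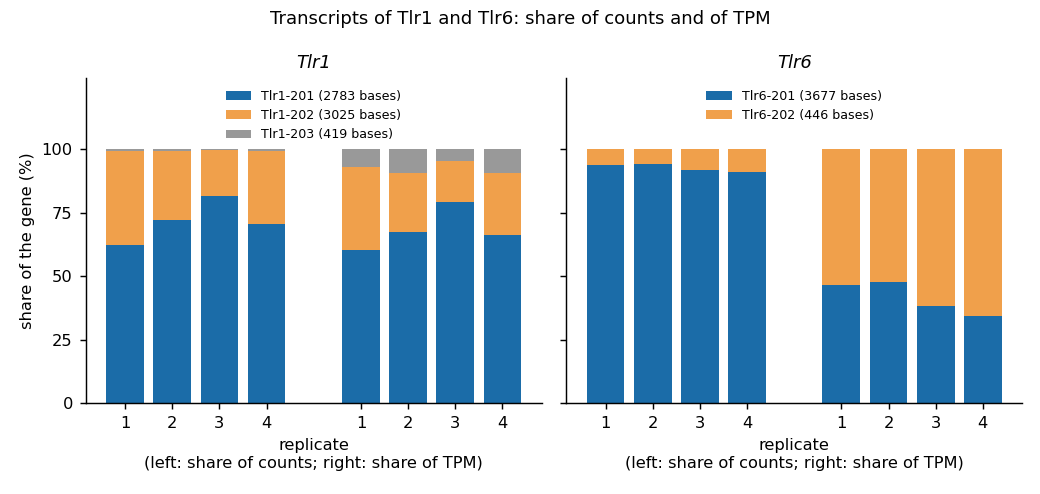
Share (%) of each annotated transcript of Tlr1 and Tlr6 in each library, as a share of the counts of the gene (left bars) and of its TPM (right bars). Tlr6-202, a model of 446 bases, takes 5.82 to 9.00% of the Tlr6 counts and 52.1 to 65.7% of its TPM.

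Tlr6, the partner for diacylated lipoproteins, read 23.1, 33.3, 39.1 and 42.4 TPM in replicates 1 to 4. Replicate 1 was lowest and replicate 4 highest. On scaled counts the values were 24.9, 37.8, 38.4 and 38.2 CPM: replicate 1 was low and the other three were nearly equal. The range was 1.54-fold (adjusted p 1.23e-22, chi-square with Benjamini-Hochberg adjustment), which missed the 2-fold size. Without replicate 1 the range was 1.01-fold and the noise test gave an adjusted p of 0.941, so the variation of Tlr6 rested on that library.

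TPM and counts weight the transcripts of Tlr6 differently. Tlr6-201 (3677 bases) holds the whole coding sequence, and Tlr6-202 is a model of 446 bases whose end was not found and which is not in the GENCODE basic set. Exon 2 of Tlr6-202 lies inside exon 2 of Tlr6-201, and Tlr6-202 has only a 75-base first exon at chr5:64960023-64960097 that reaches beyond it. Tlr6-202 received 42.6, 66.2, 109 and 130 counts in replicates 1 to 4, against 641, 1073, 1273 and 1315 for Tlr6-201. Its deposited effective length, the number of positions a fragment can start from, was 198, 194, 181 and 175 bases, which turned these few counts into 53.5%, 52.1%, 61.7% and 65.7% of the TPM of the gene. Tlr6-201 alone stood at 10.7, 16.0, 14.97 and 14.5 TPM. The second quantification also gave Tlr6-202 the larger share of TPM, at 56.4 to 65.5%.

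The place of Tlr6 beside Tlr1 therefore depends on which transcripts are counted, an alternative chosen after the data were seen. With all annotated transcripts, Tlr1 exceeded Tlr6 by 0.99 ± 0.456 on the log2 scale (SD, n = 4), which is 1.99-fold. With the basic set only, the difference was 2.15 ± 0.316, which is 4.45-fold, and Tlr6 fell to a mean of 14.05 TPM. The order Tlr2, Tlr1, Tlr6, Tlr5 held under both. In the basic set the ratio of Tlr1 to Tlr6 was 6.13, 3.95, 3.79 and 4.26 in replicates 1 to 4, highest in replicate 1, as it was with all transcripts (3.05, 2.08, 1.53 and 1.61).

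Tlr5 was low in these cells. It stood at 2.57 TPM in replicate 1, 2.46 in replicate 2, 0.93 in replicate 3 and 1.35 in replicate 4, from 121, 135, 64 and 101 counts. Replicates 1 and 2 were high and replicate 3 was lowest. The range of scaled counts was 2.52-fold (adjusted p 2.02e-11, chi-square with Benjamini-Hochberg adjustment), and Tlr5 was called variable. Without replicate 3 it was 1.68-fold (adjusted p 0.000101) and the call was lost. Tlr6 exceeded Tlr5 in 4 of 4 libraries by 4.32 ± 1.04 on the log2 scale (SD, n = 4), a 20.01-fold difference that was 8.89-fold with the basic set. Tlr5-201, the transcript of 3199 bases with the whole coding sequence, held 91.0 to 95.4% of the Tlr5 TPM. In the second quantification its share was lower, at 73.7 to 87.2%. Tlr5-202 and Tlr5-204 were allotted 0 counts in every library. The exons of Tlr5-204 lie wholly inside those of Tlr5-201, so for Tlr5-204 this is the authors' allocation and need not mean an absence of reads. The single exon of Tlr5-202 overlaps exons of Tlr5-201 but also holds bases outside them, and reads on those bases were not examined. The summed level of 10 markers of neutrophils and granulocyte precursors was 223, 126, 747 and 78.8 TPM in replicates 1 to 4, highest in the library where Tlr5 was lowest. The sum was lowest in replicate 4, where Tlr5 was also low at 1.35 TPM. Most of the sum in replicate 3 was S100a9 (457 TPM) and S100a8 (181 TPM), while Mmp8 was highest in replicate 1 at 25.1 TPM. Of these markers 5 were at 1 TPM or more in every library, while Ly6g, which defines neutrophils, was at 0 in 3 libraries and at 0.12 TPM in replicate 3. Their part in the Tlr5 values was not tested.

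The deposited credibility intervals gave a separate measure of the precision of each level. They were apart for 6 of 6 pairs of libraries for Tlr2, 3 of 6 for Tlr1, 3 of 6 for Tlr6 and 4 of 6 for Tlr5. Some pair was apart for 77.5% of the 10250 genes at 1 TPM or more in every library, to which Tlr5 does not belong. The intervals belong to a posterior mean, and the deposited TPM lay above the interval in 4 libraries for Tlr2 and 2 for Tlr1. In replicate 1, for example, Tlr2 was listed at 226 TPM with an interval of 206 to 214.

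Replicates 1 and 2 have 6 read files each in the deposited lists and replicates 3 and 4 have 4 each, a recorded difference that no source calls a batch. Tlr2 differed inside both pairs, by 2.71-fold between replicates 2 and 1 and by 1.86-fold between replicates 4 and 3. Tlr6 differed 1.52-fold in the first pair and by a ratio of 0.996 in the second. Tlr5 was nearly equal in the first pair (1.02) and differed 1.503-fold in the second. Tlr1 stood at ratios of 0.975 and 1.12. Between the pairs, edgeR's quasi-likelihood test called 0 of 12701 genes (0.00%), and 290 had an unadjusted p under 0.05. Over 21189 genes, with no filter beyond a total count above 0, edgeR called 18. DESeq2 called 35 from the same genes, but its default filter on mean count also acts in the adjustment. The log2 difference of replicates 3 and 4 from replicates 1 and 2 was −1.002 for Tlr5 (edgeR adjusted p 0.9999), 0.29 for Tlr6, −0.02 for Tlr1 and −0.01 for Tlr2.

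The genes whose levels moved most like each receptor over the 4 libraries were named by distance between profiles of log2(CPM + 1) centred on the mean of each gene. Closest to Tlr2 among 3628 eligible genes were Uba7 at a distance of 0.0785, Tapbp at 0.0788, Ulk1 at 0.0879, Tgtp1 at 0.105 and Apobec3 at 0.12. Uba7 activates the ubiquitin-like protein Isg15, Tapbp is tapasin of antigen presentation, and Ulk1 is a kinase that starts autophagy. Tapbp read 166.9, 422.9, 197.3 and 351.2 TPM, high in the libraries where Tlr2 was high, which follows from its selection by profile. Closest to Tlr1 among 10411 were Sec61a1, a channel subunit of the endoplasmic reticulum, at 0.0225, then Kat8, Nfya, Osgep and Ndufb7. Closest to Tlr6 among 8618 were Hgs, a sorting protein of endosomes, at 0.0216, then Xpa, Trim41, Fundc1 and Pde8b. Closest to Tlr5 among 6074 were Mif, a cytokine, at 0.0811, then Zfp771, Gm10260, Bax and Rplp2. The likeness is on counts: in TPM Rplp2 read 646.1, 603.5, 607.3 and 532.6 and did not share the low value of Tlr5 in replicate 3. With 4 libraries many genes share a profile: 1146 of 12626 tested genes (9.08%) had the same order of libraries as Tlr2.

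**Figure D4:**
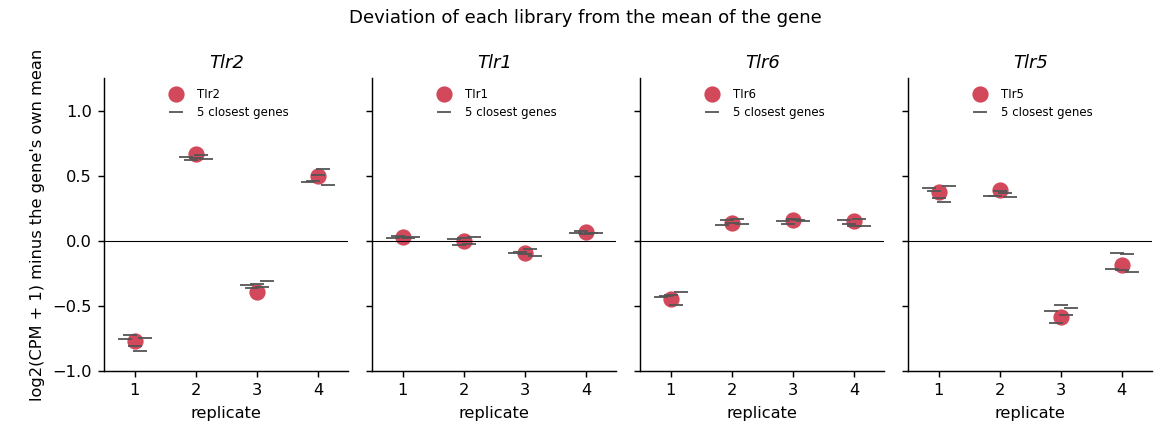
Deviation of each library from the mean of the gene, in log2(CPM + 1), for each receptor gene (red) and its 5 closest genes (dark dashes), over replicates 1 to 4. Tlr2 lies above its mean in replicates 2 and 4, Tlr1 lies near 0 throughout, Tlr6 is low in replicate 1 and Tlr5 is low in replicates 3 and 4.

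The genes that work with these receptors were read from 6 lists of 57 genes, of which 53 could be tested and 11 were called variable (20.8%, beside 33.0% of all genes tested). The co-receptors and accessory proteins held 5 of 8 tested genes called. Cd14, which hands ligands to Tlr2 and its partners, led the list at 1461 TPM and was not called. Vtn had 0 counts in every library, which allows up to 3 counts, or 0.111 CPM in the shallowest library. Cd36, a scavenger receptor that assists Tlr2 with Tlr6, stood at 965 and 889 TPM in replicates 1 and 3 and at 88.6 and 164 in replicates 2 and 4. It was low in the libraries where Tlr2 was high. Clec7a, the β-glucan receptor that acts with Tlr2, was lowest in replicate 1 at 172 TPM and highest in replicate 3 at 757. Ly96, the partner of Tlr4, read 33.0, 47.2, 98.2 and 29.7 TPM. Lbp, a lipid-binding protein, stood at 0.81 to 1.8 TPM, and Itgb3, an integrin chain, at 3.49 to 8.61.

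The chaperones and trafficking genes that bring Toll-like receptors to their membranes were at 1 TPM or more in 8 of 8 cases, with a median of 103.5 TPM. The 1 gene called was Unc93b1, which also led the list, at 280, 584, 375 and 440 TPM, high in replicate 2 and low in replicate 1 like Tlr2. Cnpy4 was lowest at 10.7 TPM. In the signalling list, 0 of 15 genes were called, beside 33.0% of all genes tested, with a median range of 1.21-fold. The noise test alone passed for 13 of the 15, beside 88.6% of all genes tested. Pik3ap1, an adaptor to the PI3 kinase, led it at 283 TPM, Tirap, the bridging adaptor of Tlr2, was lowest at 3.52, and Myd88 stood at 71.0. Of the restraint list, 2 of 9 tested genes were called, Sigirr at 0.38 to 1.13 TPM and Nlrc5 at 17.3 to 37.8. Tnfaip3, which removes ubiquitin from signalling proteins, led that list at 958 TPM and Sarm1 was lowest at 0.0425.

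Among the other Toll-like receptors 2 of 6 tested genes were called, Tlr7 and Tlr9, beside 33.0% of all genes tested. Tlr3, Tlr4, Tlr8 and Tlr13 were not called, at ranges of 1.89, 1.23, 1.40 and 1.71-fold. Tlr7 stood at 94.6, 221, 131 and 171 TPM and Tlr9 at 5.6, 23.1, 8.14 and 19.5 TPM, each high in replicates 2 and 4 like Tlr2. Tlr13 led the list at 191 TPM and Tlr12 was lowest at 0.075. Flagellin is also sensed in the cytosol, by Naip5 and Naip6 with Nlrc4, and these stood at 8.43, 4.46 and 5.68 TPM, above the 1.83 TPM of Tlr5. In that list 1 of 7 genes was called, Naip1 at 0.03 to 0.23 TPM, which was also the lowest, and Casp1, the protease of the inflammasome, led it at 98.05 TPM.

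**Figure D5:**
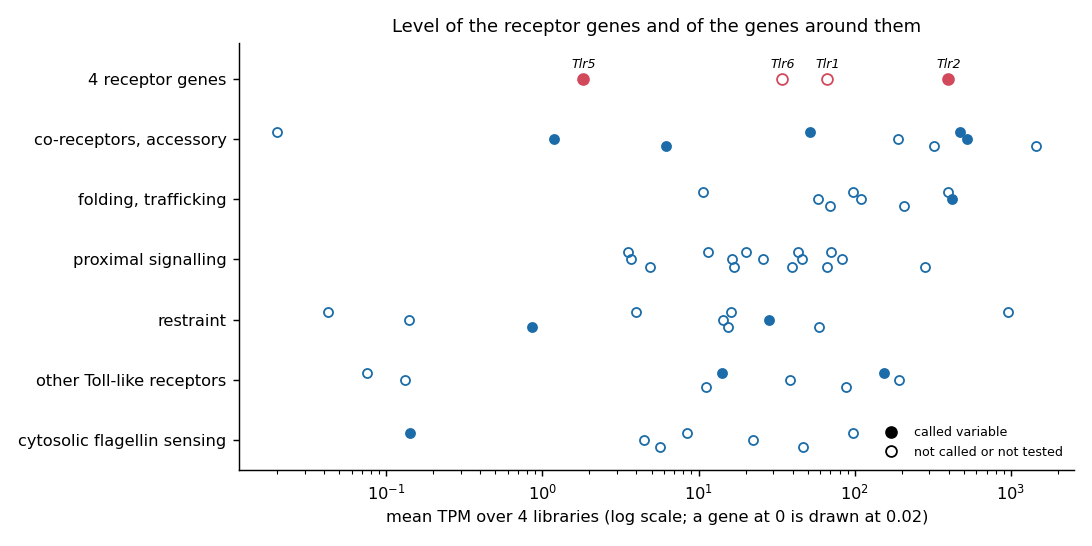
Mean TPM over 4 libraries (log scale) of the 4 receptor genes (red) and of the genes of 6 lists around them (blue), filled where a gene was called variable. The signalling list has no filled symbol among 15 genes, and the co-receptor list has 5 filled among its 9. Of all genes tested, 33.0% were called.

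All 10 macrophage markers were at 1 TPM or more in every library. Beside the neutrophil and granulocyte precursor genes given with Tlr5, whose sum reached 747 TPM, markers of other cells had lower sums. These reached 15.7 TPM for 8 dendritic cell genes, 29.3 for 6 B cell genes, 2.46 for 6 stromal and endothelial genes, 0.41 for 6 T and NK cell genes and 0.13 for 4 epithelial genes, 2 of which were at 0 in every library. Total gene counts ranged from 26917324 to 39438414 per library.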

How the data were processed

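The 4 receptor genes and the gene lists were chosen with earlier results of these data known. Each library had a deposited gene table and 2 deposited transcript tables on mm10 with GENCODE M21, per the deposited file lists; for tools, versions and strandedness the sources used here give nothing. The first transcript table and the gene table hold the authors' expected counts, TPM scaled over all rows and FPKM, per the file headers. The deposited percent columns give each transcript's share of its gene, and the deposited interval bounds of TPM are a non-negative signal of unstated level. The second transcript table holds the authors' estimated counts and TPM, summed here to genes; 86 genes have no transcript in it. Of 81881 rows, 55536 were genes, all matched to GENCODE M21, and rows without a gene held 0.103 to 0.118% of counts and were left out.

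Counts were rounded for count tests. R 4.3.3 ran edgeR 4.0.16, whose TMM factors scaled the libraries, limma 3.58.1 and, as an alternative, DESeq2 1.42.0. Variation was tested per gene by chi-square with 3 degrees of freedom for genes averaging 10 counts or more, adjusted by Benjamini-Hochberg over all of them; it covers counting error only, since fragments are not independent molecules. The contrast by listed read files used edgeR's quasi-likelihood test. The scripts were tested on simulated data, and used Python 3.11.15, NumPy 2.4.6, SciPy 1.17.1, pandas 2.3.3 and matplotlib 3.10.9. Genes named were the 4 receptors, the highest, lowest and variable genes of each list (up to 6), and the 5 closest profiles per receptor, among protein-coding genes at a mean of 1 CPM and at least 0.5 of the SD of the receptor; others were named after their values were seen.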

Additional observations from a re-analysis of the deposited data

Results flagged for a closer look

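Of 75 sets of 4 library values tested for a value far from the other three, 3 stood out, and chance gives about 1 in 20. A processed transcript of Tlr5, of 498 bases, was at 0.23 TPM in replicate 1, from 1 count, and at 0 in the other libraries. Irak3, an inhibitor of receptor signalling, was at 10.79 TPM in replicate 1, below 15.2 to 15.9 in the others. Naip6, a flagellin sensor of the cytosol, was at 5.15 TPM in replicate 2, above 4.15 to 4.26 in the others.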

How the results depend on the processing

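The order Tlr2, Tlr1, Tlr6, Tlr5 held under every alternative run. The mean of Tlr2 was 295.7 TPM in the second quantification and 484.7 after rescaling over nuclear protein-coding genes. Both lay within its wide SD of 178.6 TPM around the main value. In the second quantification the highest library of Tlr2 was replicate 4 (414.5 TPM), above replicate 2 (381.4 TPM). The mean of Tlr1 was 57.2 TPM in the second quantification, 82.5 after rescaling over nuclear protein-coding genes, 61.9 with basic-set transcripts and 47.5 with those in the second quantification; for Tlr6 the basic-set means were 14.05 and 10.6 TPM. Leaving out each library in turn gave means of 330.6 to 454.7 TPM for Tlr2, 65.8 to 69.4 for Tlr1, 31.8 to 38.2 for Tlr6 and 1.58 to 2.13 for Tlr5, and log2 differences of 2.24 to 2.72 for Tlr2 minus Tlr1, 0.79 to 1.12 for Tlr1 minus Tlr6 and 3.97 to 4.71 for Tlr6 minus Tlr5. The number of variable genes was 7347 (58.19% of 12626 tested) at a ratio of 1.5, where Tlr6 was called. With a library left out it was 2048 to 3683 (16.15 to 29.23% of genes tested). The read-file contrast called 18 genes with no filter, 10 in the second quantification, 35 with DESeq2 (also with no filter) and 0 to 98 with a library left out, 98 without replicate 2; its log2 value for Tlr2 ran from −0.55 to 0.92 (0.92 without replicate 2, 0.36 without replicate 3) and for Tlr1 the log2 value ran from −0.095 to 0.042, changing sign, and the cause was not tested. Over all alternatives run, called genes numbered 3 to 8 among co-receptors, 0 to 6 in trafficking and 0 to 2 in signalling. They numbered 0 to 5 in flagellin sensing, 1 to 3 in restraint and 1 to 4 among other Toll-like receptors. The values 8, 6, 2, 5 and 4 were reached only at a ratio of 1.5, where 58.19% of all genes tested were called. With a library left out, called genes numbered 3 to 5 among co-receptors (3 without replicate 3) and 0 to 1 in trafficking (0 without replicate 1 or 2). They numbered 0 in signalling and 0 to 3 in flagellin sensing (0 without replicate 1, 3 without replicate 2). Restraint held 1 to 2 (1 without replicate 2 or 3), and other Toll-like receptors held 1 to 2 (1 without replicate 1 or 2). The range of Tlr5 exceeded that of Tlr2 in the second quantification (2.71 against 2.55) and without replicate 1 or 2. No paired analysis was possible because all 4 libraries belong to 1 group.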

Other observations

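Of the 53 tested genes around the receptors, 8 (15.1%) had their libraries in the order of Tlr2, namely Tlr7, Tlr9, Unc93b1, Cnpy3, Cnpy4, Cyld, Naip6 and Tab1; among all genes called variable it was 550 of 4167 (13.2%).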
